A study of Mus musculus with 43 samples.

Results

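Transcript levels in Foxl2-null ovaries of embryonic day 16 (E16) were compared with those in wild-type ovaries of the same day. The questions were which genes of the fetal ovary depend on Foxl2 and which differences moved with the signal of red-cell genes. The comparison used 6 of the 43 arrays of the series, taken by their titles: 3 arrays of ovaries labelled Foxl2-/- and 3 of ovaries whose labels name no mutant allele. Each array held RNA of the whole gonad, free of adjoining tissue, from 1 animal by the study's methods, which give null and wild-type littermates on a mixed C57BL/6J, NIH-Swiss/BC and CD1 background. The deletion was present in every cell of the animal from conception, so nothing here is limited to 1 cell type. As reference points, 3 arrays of E16 ovaries labelled Foxl2+/-, and the Foxl2-null and control ovaries of E13 and of the day of birth (P0), with 3 arrays in each group, were used. The P0 controls name no mutant allele, whereas the E13 controls are labelled Foxl2+/- although the methods speak of wild-type littermates. The 37 arrays outside the comparison also served to measure how each gene moved with erythroid genes. Besides the reference groups they held testes of E13 and P0, and Wnt4-null and control ovaries of E15. The rest were P0 ovaries that were Wnt4-null, Kit Wv/Wv, or either of these with Foxl2 loss. By the study's methods the E15 ovaries were of another mixed background and the P0 testes came from Wnt4-null mice.

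Foxl2 is a forkhead transcription factor of the supporting cells of the ovary, the cells that become the granulosa of the follicle, and its loss later lets Sertoli-cell genes appear in this lineage. Supporting cells signal to germ cells and stroma through secreted factors such as Kit ligand, activins and inhibins, and they shape the matrix around the germ-cell cysts. A fetal gonad is perfused with blood, and at this age circulating red cells still include nucleated and RNA-rich forms that carry transcripts of membrane proteins, of heme synthesis and of globins.

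Signals are given as multiples of the mean signal of an array, which the deposited values hold at the same level in every array. Differences are log2 fold changes of null over wild-type ovaries after adding 1% of that mean, with their standard error (SE) from the fit over all arrays (n = 3 and 3). The words rose and fell are kept for genes with an adjusted p under 0.05 in limma, adjusted over 45007 probe sets, and the brightest probe set stands for a gene. These levels are compared between samples and never between genes. In whole ovaries, fewer cells of a type and less RNA per cell cannot be told apart.

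The targeted gene was examined first. The brightest Foxl2 probe set read 16.5, 15.7 and 14.5 in the wild-type arrays and 2.77, 2.03 and 2.47 in the null arrays. In the heterozygous arrays it read 13.1, 13 and 13.6, just under the wild-type arrays and well clear of the null arrays. Foxl2 fell by 2.69 on the log2 scale (SE 0.51, adjusted p = 0.00621). The other Foxl2 probe set read 0.31, 0.274 and 0.355 in wild-type and at most 0.000324 in null ovaries, under the added 1%, so no fold is given for it. Where either probe set lies relative to the deleted part is not known here.

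In all, 120 of 18184 genes were called (0.66%), of which 72 rose (0.396%) and 48 fell (0.264%). The median log2 fold change of all genes was -0.026. Counted singly, 183 probe sets were called (0.407%), 106 that rose (0.236%) and 77 that fell (0.171%). In 119 of the 120 genes the null and wild-type arrays did not overlap, as in 16.5% of all genes (null higher in 7.52%, lower in 8.96%), and the exception was Spx, whose null arrays read 0.000152, 0.292 and 0.0094 against 0.167, 0.313 and 0.347. At an unadjusted p under 0.05 there were 1332 genes (7.33%). The count depends on single arrays, from 50 genes without wild-type array 3 to 112 without null array 2.

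The called genes were divided by how they moved with red-cell genes in arrays outside the 6 compared. Those arrays enter the comparison only through the shared variance of the fit. An erythroid score was taken as the mean log2 signal of 46 genes of red cells, and the slope of every gene on that score was estimated within the groups of the 37 other arrays. A positive slope was called for 12 genes (0.066%) and a negative slope for 0. Of the 72 risers 7 had a positive slope, namely Hemgn, Ermap, Rhd, Slc4a1, Rhag, Cldn13 and Car2, and 65 had no called slope. Of the 7 all but Cldn13 belong to the 46 genes, and the slope of each such gene was taken on the score without that gene. None of the 48 fallers had a called slope. The score itself read -1.57, -1.87 and -1.67 in wild-type arrays and -0.86, -0.70 and 0.35 in null arrays, with no overlap. Genotype and score thus cannot be told apart from these 6 arrays alone. The score is a signal of these genes and not a measured share of blood RNA.

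Promoter sequences are shown for 3 called genes, a neighbouring pair of fallers and a riser of the red-cell group, because they hold a motif that was searched for. Each line gives the 250 bases before the start site in RefSeq's annotation of GRCm38.p6, 5′ to 3′ on the strand of the gene, which is minus for both Gstm genes and plus for Rhd. Capitals mark the motif, GTCAAGG or its reverse complement CCTTGAC in the Gstm genes and AGATAAG in Rhd.
Gstm6 promoter, chr3:107943399-107943648: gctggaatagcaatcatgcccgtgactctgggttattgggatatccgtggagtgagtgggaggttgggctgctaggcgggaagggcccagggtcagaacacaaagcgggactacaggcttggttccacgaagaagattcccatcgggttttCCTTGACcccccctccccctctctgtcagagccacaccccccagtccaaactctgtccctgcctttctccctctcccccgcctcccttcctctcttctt
Gstm7 promoter, chr3:107931818-107932067: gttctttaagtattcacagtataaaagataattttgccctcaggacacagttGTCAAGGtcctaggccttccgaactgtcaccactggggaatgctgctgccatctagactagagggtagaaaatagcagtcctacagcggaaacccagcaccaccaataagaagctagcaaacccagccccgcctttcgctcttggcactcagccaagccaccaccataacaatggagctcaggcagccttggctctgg
Rhd promoter, chr4:134864286-134864535: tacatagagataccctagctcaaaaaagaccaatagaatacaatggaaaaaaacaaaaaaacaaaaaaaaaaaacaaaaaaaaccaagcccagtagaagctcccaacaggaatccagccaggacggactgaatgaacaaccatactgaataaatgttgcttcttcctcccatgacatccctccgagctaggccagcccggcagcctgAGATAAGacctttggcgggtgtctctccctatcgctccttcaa
The first base of the motif is at position -99 from the start site in Gstm6, -198 in Gstm7 and -43 in Rhd. In windows of 300 bases, which add 50 bases after the start, searched on both strands, GTCAAGG, a sequence of the type bound by Foxl2, occurred in 3.65% of 27025 genes. It occurred in 2 of the 36 fallers with a promoter in the table and in 5 of 54 risers without a slope. The forkhead motif TGTTTAC occurred in 4.05% of all genes, in 2 of the 36 fallers and in 1 of the 54 risers. AGATAAG, a sequence of the GATA type, occurred in 3.5% of all genes, in 1 of the 4 red-cell risers with a promoter in the table, in 4 of the 54 other risers and in 1 of the 36 fallers. The motif CCACACCCT of Klf1 type occurred in 0.947% of all genes, in 1 of the 36 fallers and in none of the 54 or the 4 risers. These are matches of letters and not binding sites.

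Among the 65 risers without a slope were genes of secreted ligands. Inhbb, the beta B subunit of activin and inhibin, read 0.964, 0.851 and 0.682 in wild-type and 2.03, 1.93 and 2.01 in null ovaries (log2 1.26 ± 0.21, adjusted p = 0.00123). Its heterozygous arrays read 0.895, 0.783 and 0.726, all within the wild-type range, and its second probe set also rose (log2 1.55). Dhh, the hedgehog ligand that Sertoli cells make, read 0.0741, 0.071 and 0.0815 in wild-type and 0.651, 0.191 and 0.246 in null ovaries (log2 1.92 ± 0.36, adjusted p = 0.00581). Null array 1 lies far above the other null arrays for Dhh, and without it the adjusted p was 0.125. The heterozygous arrays read 0.107, 0.098 and 0.107, between the groups, and another Dhh probe set gave -0.14, not called. Wnt9a, a secreted Wnt ligand, read 0.945, 0.845 and 0.564 against 2.52, 1.68 and 1.58 in null ovaries (log2 1.29 ± 0.28, adjusted p = 0.0208). A dimmer Wnt9a probe set gave 0.84, not called. Bmp5, a ligand of the BMP family, read 0.169, 0.0817 and 0.0725 against 0.676, 0.4 and 0.488 (log2 2.23 ± 0.41), but its other probe sets gave 0.46 and 0.14 and were not called.

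Proteases and matrix proteins were also among these risers. Mmp23, a matrix metalloproteinase, read 1.67, 1.45 and 0.485 in wild-type and 6.04, 4.02 and 5.43 in null ovaries, with heterozygous arrays at 3.65, 2.12 and 2.83 that lay between and touched neither group (log2 2.26 ± 0.30, adjusted p = 5.34e-05). Adamts8, a secreted protease, read 0.212, 0.2 and 0.234 in wild-type, 0.177, 0.198 and 0.202 in heterozygous and 0.739, 0.657 and 0.483 in null ovaries (log2 1.48 ± 0.22, adjusted p = 0.00017). The matrix glycoprotein Fbln2 read 0.348, 0.383 and 0.328 against 1.07, 0.814 and 0.67 (log2 1.22 ± 0.21, adjusted p = 0.00158). Its dimmer probe set gave 0.061, not called. The heterozygous ovaries thus read like wild-type ones for Adamts8 and Inhbb, and stood apart from both groups for Mmp23.

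Genes of other functions rose as well. Slc8a3, a sodium-calcium exchanger, read 0.0342, 0.00839 and 0.0968 in wild-type and 0.43, 0.269 and 0.328 in null ovaries (log2 2.97 ± 0.42, adjusted p = 0.000104). A dimmer Slc8a3 probe set gave 0.25, not called. Slc52a3, a riboflavin transporter, read 0.207, 0.0811 and 0.125 against 1.19, 0.583 and 0.876, with heterozygous arrays at 0.406, 0.246 and 0.115 (log2 2.63 ± 0.38, adjusted p = 0.00012). Jakmip1, which binds Janus kinases and microtubules, was even within each group, at 0.463, 0.439 and 0.464 in wild-type, 1.06, 0.92 and 1.09 in heterozygous and 2.61, 1.82 and 2.23 in null ovaries (log2 2.25 ± 0.36). Ptpre, a receptor tyrosine phosphatase, read 0.333, 0.401 and 0.385 against 1.1, 1 and 1.49 (log2 1.64 ± 0.21, adjusted p = 2.18e-05). B3galt6, a galactosyltransferase of proteoglycan synthesis, read 0.104, 0.118 and 0.0346 in wild-type, 1.03, 1.48 and 1.5 in null and 1.31, 1.16 and 1.27 in heterozygous ovaries. It was the only gene called between heterozygous and wild-type ovaries (0.0055% of genes, adjusted p = 0.0168), a comparison that shares the wild-type arrays. Other B3galt6 probe sets went from 0.0897 to 0.0943 and from 0.179 to 0.287 and were not called.

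**Figure D1:**
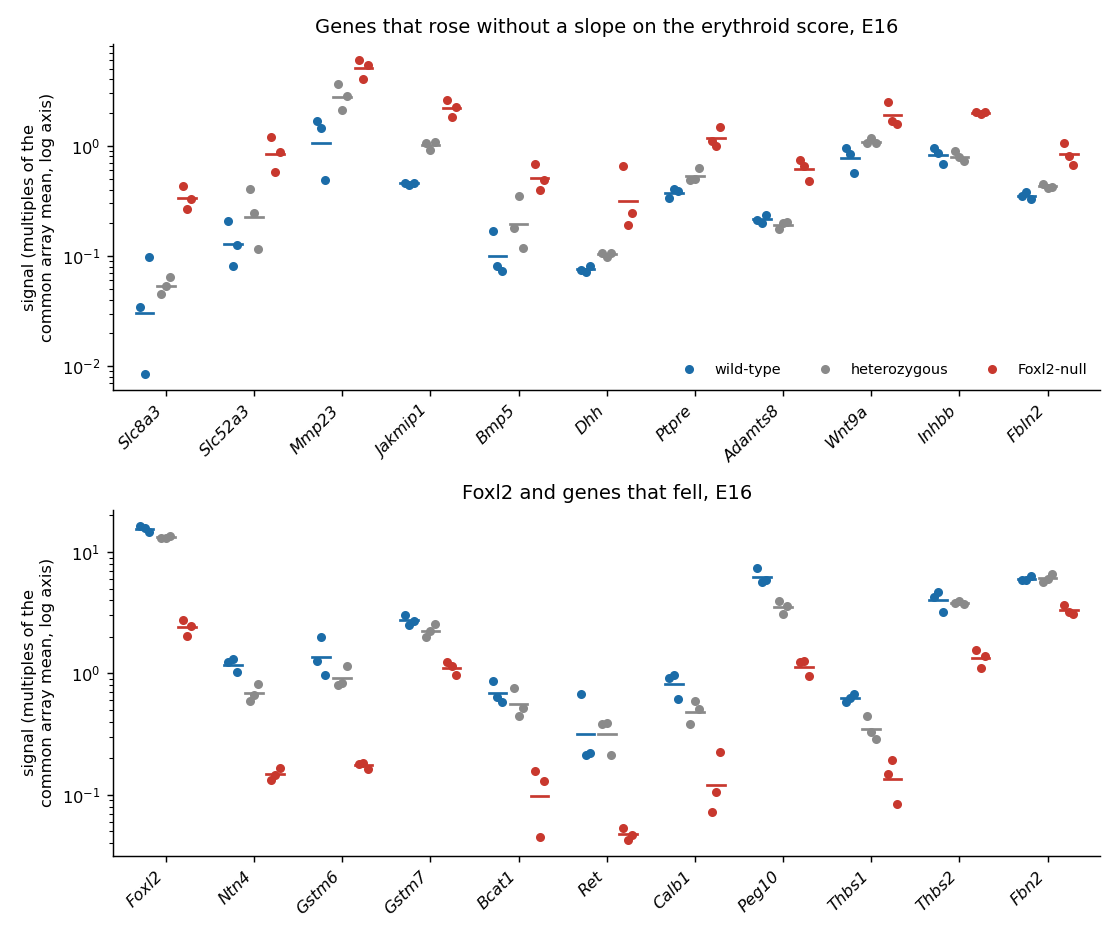
Signal of each E16 array for 11 risers without a slope on the erythroid score (upper panel) and for Foxl2 and 10 fallers (lower panel), as multiples of the common array mean on a log axis; points are arrays of wild-type, heterozygous and null ovaries, bars are geometric means, and values under 0.005 are drawn at 0.005. For every gene drawn the 3 null arrays lie apart from the 3 wild-type arrays, from Ntn4 at 0.132 to 0.166 against 1.02 to 1.32 to Inhbb at 1.93 to 2.03 against 0.682 to 0.964.

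The fallers included genes of guidance molecules, receptors and matrix proteins. Ntn4, a netrin of basement membranes, read 1.23, 1.32 and 1.02 in wild-type, 0.591, 0.664 and 0.814 in heterozygous and 0.132, 0.146 and 0.166 in null ovaries (log2 -2.92 ± 0.42, adjusted p = 0.000103). No 2 of these groups overlapped for Ntn4. Its dimmer probe set gave -1.27, not called. Ret, the receptor tyrosine kinase of the GDNF family, read 0.676, 0.214 and 0.222 against 0.0535, 0.0422 and 0.047 (log2 -2.52 ± 0.55, adjusted p = 0.02), with wild-type array 1 far above the other wild-type arrays. A dimmer Ret probe set gave -1.69, not called. Mdga2, a membrane-anchored adhesion protein, fell, but wild-type array 1 read 0.632 where the other wild-type arrays read 5.47 and 7.39, against 0.405, 0.619 and 0.523 in null ovaries, so its groups nearly meet. The neuronal-type adhesion genes Clstn2 (log2 -1.6 ± 0.32) and Lrrc4 (log2 -1.42 ± 0.32) fell as well, Clstn2 from 1.3, 1.39 and 1.25 to 0.534, 0.4 and 0.36.

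Of 4 measured thrombospondins, secreted matrix proteins that also bind growth factors, Thbs1 and Thbs2 fell, and Thbs3 (log2 -0.081) and Thbs4 (log2 0.0025) were not called. Thbs1 read 0.578, 0.623 and 0.676 against 0.149, 0.195 and 0.0848 (log2 -2.12 ± 0.40, adjusted p = 0.00497), and a second probe set fell too (log2 -2.54). Thbs2 read 4.23, 4.65 and 3.22 in wild-type, 3.83, 3.97 and 3.71 in heterozygous and 1.56, 1.1 and 1.38 in null ovaries (log2 -1.57 ± 0.25, adjusted p = 0.000427). Both other Thbs2 probe sets fell (log2 -1.38 and -1.5). Fbn2, a fibrillin, went from 5.87, 5.9 and 6.32 to 3.69, 3.2 and 3.08 (log2 -0.86 ± 0.17), a small change with tight replicates. Adamts16, a protease of the same family as Adamts8, went the other way from it, from 1.59, 1.45 and 1.27 to 0.757, 0.757 and 0.714 (log2 -0.94 ± 0.19), while its dim second probe set gave -0.057, not called.

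Several enzymes also fell. Gstm6 and Gstm7, mu-class glutathione transferases whose promoters are printed above, read 1.27, 2 and 0.977 against 0.178, 0.184 and 0.162 (log2 -2.89 ± 0.46, adjusted p = 0.000626) and 3.05, 2.52 and 2.7 against 1.23, 1.15 and 0.977 (log2 -1.3 ± 0.17, adjusted p = 2.91e-05). A dimmer Gstm7 probe set gave -0.28, not called. Gstm1 of the same class fell from 7.39, 7.51 and 9.01 to 4.71, 3.71 and 4.75 (log2 -0.86 ± 0.19, adjusted p = 0.0184). These paralogs are close in sequence, and signal shared between their probe sets cannot be told apart here. Elovl2, an elongase of polyunsaturated fatty acids, read 0.376, 0.584 and 0.534 against 0.0821, 0.118 and 0.0704 (log2 -2.35 ± 0.29, adjusted p = 2.18e-05). Bcat1, the cytosolic aminotransferase of branched-chain amino acids, read 0.87, 0.639 and 0.577 against 0.158, 0.0451 and 0.131 (log2 -2.67 ± 0.40, adjusted p = 0.000193), though its dimmer probe sets gave -0.82 and -0.92, not called. B3gat1, a glucuronyltransferase that makes a carbohydrate of adhesion proteins, was even in wild-type ovaries at 0.302, 0.301 and 0.298 and read 0.026, 0.0388 and 0.0536 in null ovaries (log2 -2.69 ± 0.43). Of its 3 other probe sets 2 fell. Akr1c14, a reductase of steroid hormones, read 2.21, 3.6 and 3.58 against 1.26, 1.21 and 1.11 (log2 -1.35 ± 0.23, adjusted p = 0.0012).

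Peg10, an imprinted gene derived from a retrotransposon, read 7.32, 5.67 and 5.86 in wild-type, 3.96, 3.06 and 3.59 in heterozygous and 1.24, 1.26 and 0.945 in null ovaries, 3 groups without overlap (log2 -2.44 ± 0.34, adjusted p = 6.59e-05). Calb1, a calcium-binding protein that also marks mesonephric ducts, read 0.914, 0.964 and 0.615 against 0.0723, 0.105 and 0.224 (log2 -2.66 ± 0.53, adjusted p = 0.00945), and another of its probe sets fell (log2 -2.96). It was the only one of 7 measured mesonephric duct genes to be called, and the median of that list was -0.2. Il13ra2, the decoy receptor of interleukin 13 (log2 -2.29 ± 0.35), Pla2r1, a phospholipase receptor (log2 -2.15 ± 0.42), and Fam184b (log2 -2.31 ± 0.39) fell without overlap. So did Amph, which shapes membranes in endocytosis, and Fabp7, a fatty acid binding protein (log2 -1.97 ± 0.37 and -1.89 ± 0.36). Dimmer Fam184b probe sets went the other way, at 0.43 and 0.4, and were not called. Il13ra2 and Pla2r1 read 0.645 to 0.87 and 0.689 to 0.92 in the heterozygous arrays, above all null arrays. The wild-type arrays read 0.566 to 0.707 for Il13ra2, overlapping the heterozygous ones. For Pla2r1 they read 0.413 to 0.622, under all heterozygous arrays. Kitl, the ligand that supporting cells offer to the Kit receptor of germ cells, was not called by its brightest probe set. That probe set read 9.58, 8.95 and 9.45 against 5, 6.57 and 2.97 (log2 -1.02 ± 0.25, adjusted p = 0.0567). The 3 other Kitl probe sets fell (log2 -0.88, -0.96 and -1.1, adjusted p = 0.0184, 0.0436 and 0.0325), and Kitl was singled out here after these values were seen.

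Of 24 measured Sertoli-cell genes 2 rose (Dhh and Inhbb) and 1 fell (Aard, from 2.57, 3.08 and 2.26 to 0.983, 1.35 and 1.21). That is 12.5% called beside 0.66% of all genes, with members moving both ways and a median of 0.19. Without overlap were 33.3% of them, beside 16.5% of all genes. That share was 30% in the fetal ovary somatic list and 35.7% in the granulosa list, so it is not particular to Sertoli-cell genes. Sox9, the factor that starts Sertoli differentiation, read 0.543, 0.234 and 0.336 against 0.599, 0.335 and 0.462, overlapping groups (log2 0.36 ± 0.36, adjusted p = 0.964). Dmrt1 (log2 0.49), Cst9 (log2 0.61), Fgf9 (log2 0.67) and Amh (log2 -0.47 ± 0.19, adjusted p = 0.599) were not called either. None of 20 fetal ovary somatic genes was called by its brightest probe set, and their median was -0.046. Other probe sets of 2 members fell, those of Kitl and 1 of Cdkn1b, a cell-cycle inhibitor, at 5.16, 4.5 and 4.71 against 2.15, 2.64 and 2.12 (log2 -1.06, adjusted p = 0.026). The brightest Cdkn1b probe set gave -0.81 without overlap (adjusted p = 0.67). By their brightest probe sets Nr0b1, a nuclear receptor of the early gonad, and Kitl, given above, came nearest to a call. Nr0b1 read 0.311, 0.231 and 0.182 against 0.732, 0.509 and 0.565 (log2 1.3 ± 0.32, adjusted p = 0.0557), and Msx1, a homeobox gene, read 0.619, 0.429 and 0.632 against 0.207, 0.183 and 0.307 (log2 -1.25 ± 0.39, adjusted p = 0.255), neither with overlap. Wnt4 (log2 0.36), Rspo1 (log2 0.35), Fst (log2 -0.37) and Irx3 (log2 -0.28) gave adjusted p above 0.9. Of 14 granulosa genes 1 rose, Inhbb, with a list median of -0.19.

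Pathway lists are described by their called members, beside 0.66% of all genes called. In the activin and inhibin list of 13 genes, Inhbb rose and Smad3, which carries the activin signal to the nucleus, fell from 4.43, 5.48 and 5.1 to 3.99, 3.14 and 3.36 (log2 -0.52 ± 0.12, adjusted p = 0.043). Other Smad3 probe sets gave -0.73 and -0.37 and were not called, and the activin type I receptor Acvr1c gave -1.55 without overlap (adjusted p = 0.182). Of 13 hedgehog genes Dhh was the only one called, and its targets Ptch1 (log2 0.036 ± 0.17) and Gli1 (log2 0.19 ± 0.59) had adjusted p of 0.998 and 0.992. Of 14 genes of GDNF and Ret signalling only Ret was called. Of 27 matrix remodelling genes 3 rose and 4 fell, 25.9% called, around a median of 0.003. Of 18 guidance and adhesion genes 3 fell (16.7%), with a median of -0.15. Of 14 glutathione transferases 3 fell (21.4%), and their summed signal was 34.5 to 35.8 in wild-type, 33.5 to 36 in heterozygous and 24.1 to 27.8 in null ovaries. Ndrg1 of 14 hypoxia genes and Mcm7 of 23 cell-cycle genes rose (log2 1.01 and 0.73). None of 15 glycolytic genes was called, but 14 had a higher mean in null ovaries, beside 8378 of all 18184 genes. The glycolytic list had a median of 0.34 and a summed signal of 53.3 to 59.8 in wild-type and 65.5 to 79.2 in null ovaries. With the erythroid score as a covariate that median was 0.15.

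**Figure D2:**
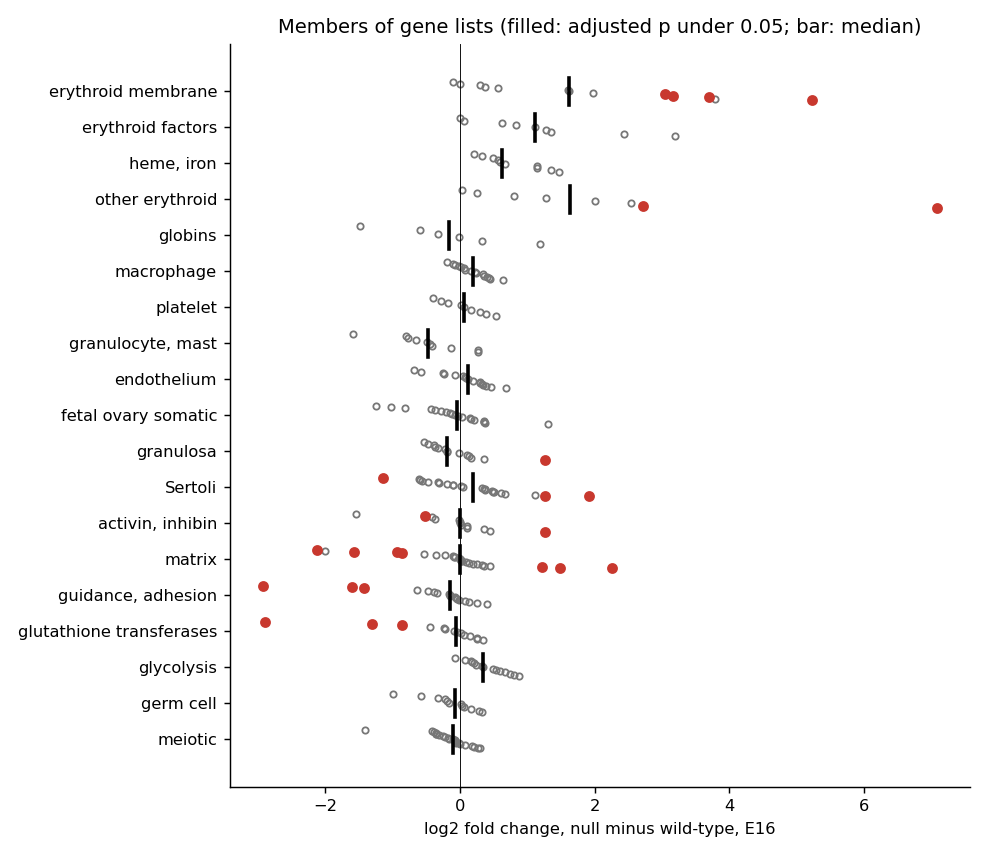
Log2 fold change of null over wild-type ovaries at E16 for every measured member of the gene lists, 1 row per list; filled points are genes with an adjusted p under 0.05 and bars are list medians. The medians of the somatic lists lie near 0, at 0.19 for Sertoli and -0.046 for fetal ovary somatic genes, whereas those of the erythroid lists other than globins lie between 0.63 and 1.64.

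Genes of red-cell precursors were among the largest rises of the comparison, and they varied widely among the null arrays. Hemgn, a nuclear protein of erythroid cells, read 0.00474, 0.0166 and 0.0181 in wild-type and 1.65, 2.75 and 5.98 in null ovaries (log2 7.08 ± 1.14, adjusted p = 0.00065). Its wild-type signals lie about at the added 1%, so the size of this change follows the amount added, from 5.61 with 5% to 7.92 with 0.1%. Ermap, a membrane protein of erythroblasts, read 0.0665, 0.0282 and 0.0484 against 0.795, 2.23 and 4.96 (log2 5.23 ± 0.86, adjusted p = 0.000869). Null array 3 was the highest in both, and so it was in Slc4a1, the anion exchanger of red cells, at 0.845, 0.401 and 0.502 against 4.04, 2.67 and 12.1 (log2 3.17 ± 0.76, adjusted p = 0.0442). Car2, a carbonic anhydrase among the 46 erythroid genes, read 0.97, 0.757 and 0.623 against 2.24, 4.88 and 12.3 (log2 2.72 ± 0.53, adjusted p = 0.0068). The blood-group gene Rhd (log2 3.69) and the claudin Cldn13 (log2 2.87) followed the same order, with null arrays at 0.214, 0.416 and 1.4 and at 0.465, 0.808 and 2.17. Kel, another blood-group gene, was not called, since only null array 3 stood out, at 5.82 beside 0.181 and 0.21 and wild-type arrays of 0.145, 0.142 and 0.163.

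The heterozygous arrays showed the same genes moving within a genotype. Hemgn read 6.45, 1.7 and 0.00354 there, Ermap 4.71, 0.751 and 0.077, Slc4a1 12.5, 6.7 and 0.639, and Kel 7.14, 0.13 and 0.111. Heterozygous array 1 thus lay close to or above null array 3, and heterozygous array 3 lay in or near the wild-type range. Their erythroid scores were 0.26, -0.79 and -1.56. Of the 46 erythroid genes, 37, 30 and 16 were above every wild-type array in heterozygous arrays 1, 2 and 3, and 33, 31 and 38 in null arrays 1, 2 and 3. The share of all genes above every wild-type array was not counted for single arrays. These counts therefore have no background beside them, and the lowest may be near it. The null and heterozygous groups overlapped in the erythroid genes named here, and the wild-type arrays were all low.

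By function, beside 0.396% of all genes that rose, 4 of 13 erythroid membrane genes rose (median 1.62), 0 of 10 heme genes (median 0.63, all 10 higher), 0 of 9 erythroid transcription factors (median 1.12, all 9 higher) and 2 of 8 other erythroid genes (median 1.64). Over all genes, 8378 of 18184 had a higher mean in null ovaries. The summed membrane signal was 6.54 to 6.97 in wild-type, 12.4 to 44.7 in null and 6.97 to 46 in heterozygous ovaries. Gata1, a master regulator of erythroid genes, read 0.147, 0.156 and 0.0554 against 0.505, 0.475 and 1.07 (log2 2.44 ± 0.65, adjusted p = 0.103), and Klf1, another one, read 0.0662, 0.0354 and 0.0375 against 0.177, 0.494 and 1.31 (log2 3.19 ± 1.01, adjusted p = 0.268). Neither was called, though their groups did not overlap. Without null array 3 the median of the membrane genes was 0.37 and 1 of them rose.

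No globin transcript was called. Of 15 globin probe sets, 8 of adult and 7 of embryonic globins, 0 were called in limma, and the lowest adjusted p was 0.562. The adult ones ranged in log2 fold change from -0.32 to 0.58. Hba-a2 read 8.14, 8.01 and 6.76 in wild-type and 7.45, 7.14 and 8.08 in null ovaries, and Hbb-b2 read 13.5, 12.3 and 14.5 against 14.8, 17.8 and 18. The probe set shared by the adult beta globins read 21.5 to 27.1 against 29 to 33.1, and the brightest probe set of any array read 36.1 to 52.6, so these signals lie near the top of the scale, where the response of an array to more transcript was not tested. A probe set shared by the alpha globins was higher without overlap, at 19.3, 12.3 and 13 against 20.7, 20.9 and 23.8 (log2 0.58 ± 0.28, adjusted p = 0.762). The embryonic globin Hbb-bh1 was dim and overlapped between the groups, with estimates of 1.19, 1.56 and 0.38 from 3 probe sets. The embryonic globin Hbb-y varied without regard to genotype, at 6.19, 0.165 and 1.14 in wild-type and 0.171, 0.801 and 0.374 in null ovaries.

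**Figure D3:**
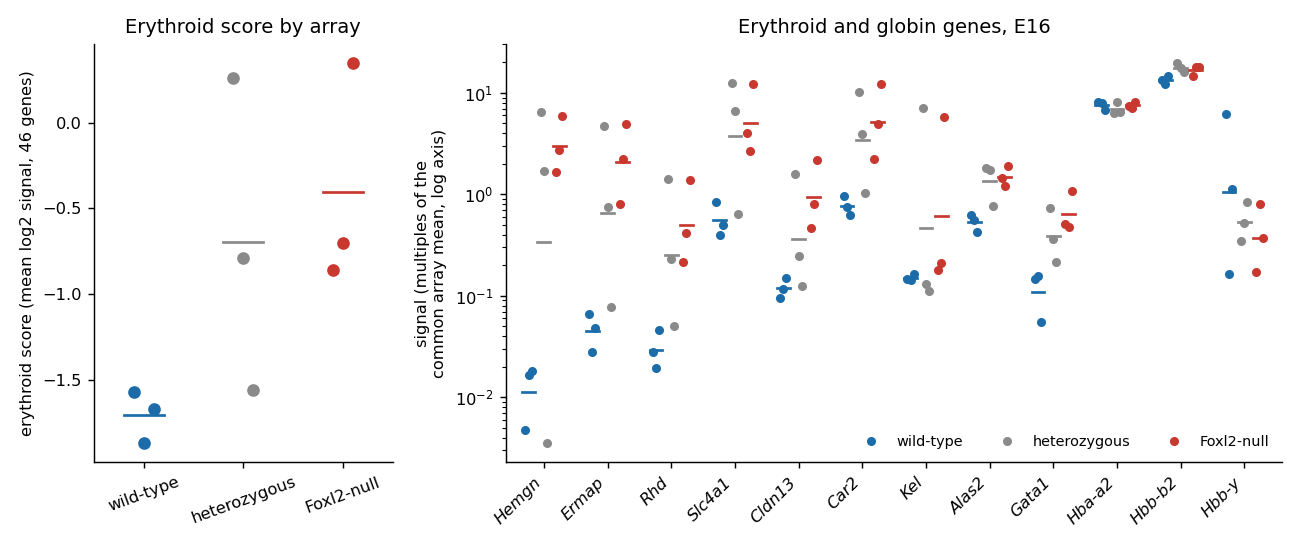
Left, erythroid score of each E16 array, the mean log2 signal of 46 genes, by genotype; right, signal of 12 erythroid and globin genes in the same arrays, as multiples of the common array mean on a log axis with bars at geometric means and values under 0.003 drawn at 0.003. Wild-type scores lie between -1.87 and -1.57 and null scores between -0.86 and 0.35, heterozygous scores span both, from -1.56 to 0.26, and no globin was called.

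The erythroid score was then entered as a covariate in the fit over all arrays. Since 6 of the 7 risers with a slope are part of that score, part of their loss follows from how it is built. The sets were also formed by slopes on this score in the 37 other arrays, which this fit uses again. A loss for the 7 and little change for the 65 and 48 thus follow largely from the grouping and do not test it. The median log2 fold change of the 7 risers with a slope went from 3.17 to 0.51, and that of the 65 other risers from 1.31 to 1.3. For the 48 fallers it went from -1.55 to -1.57. More than 0.5 of the original log2 fold change was kept by 0 of the 7, by 61 of the 65 and by all 48, and each of the 120 kept its sign. With a score of the 40 erythroid genes that were not called, chosen after these values were seen, the medians became 1.11 for the 7, 1.27 for the 65 and -1.56 for the 48. Cldn13, which is in neither score but was also grouped by its slope, gave 1.16 in place of 2.87. Hemgn then gave 3.89 ± 1.03 and was the only one of the 7 to keep more than 0.5 of its change. Among the 65, Slc14a1, the urea transporter of red cells, and Btnl10 went from 4.2 to 1.34 and from 3.93 to 1.74. Slc14a1 read 0.0552, 2.38 and 2.02 in null and 2.64, 0.0213 and 0.0357 in heterozygous ovaries against 0.0203 to 0.0319 in wild-type ones, and its slope of 2.14 was not called (adjusted p = 0.209). The risers without a called slope thus still hold some that moved like the red-cell genes.

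The covariate widened the median SE of the called genes from 0.30 to 0.38, and 18 genes (0.099%) remained called in limma, 7 that rose and 11 that fell, all of them among the 120. The risers were Slc8a3, Mmp23, Jakmip1, Ptpre, Dhh, Adamts8 and Fbln2. The fallers were Ntn4, Gstm6, Gstm7, Elovl2, Peg10, Bcat1, B3gat1, Il13ra2, Pla2r1, Thbs2 and the proteoglycan Sdc4, the last outside the rule for named genes. None of the 7 red-cell risers was among them. Foxl2 gave -2.4 ± 0.67 with the covariate (adjusted p = 0.389), so an adjusted p past the threshold there does not show that a gene was unaffected. Dhh gave 2.61, Slc8a3 2.88 and Mmp23 2.18.

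The grouping by slope rests on arrays in which the score varied. The 3 heterozygous arrays held 57.3% of the within-group variance of the score in the 37 arrays and the E15 control ovaries 29.6%. Without the heterozygous arrays a positive slope was called for 1 gene and for 0 of the 7 risers, though all 7 kept a positive estimate. With globins left out of the score 7 risers again had a called slope, with ovaries only 7, and without array 2 of the E15 controls 5.

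**Figure D4:**
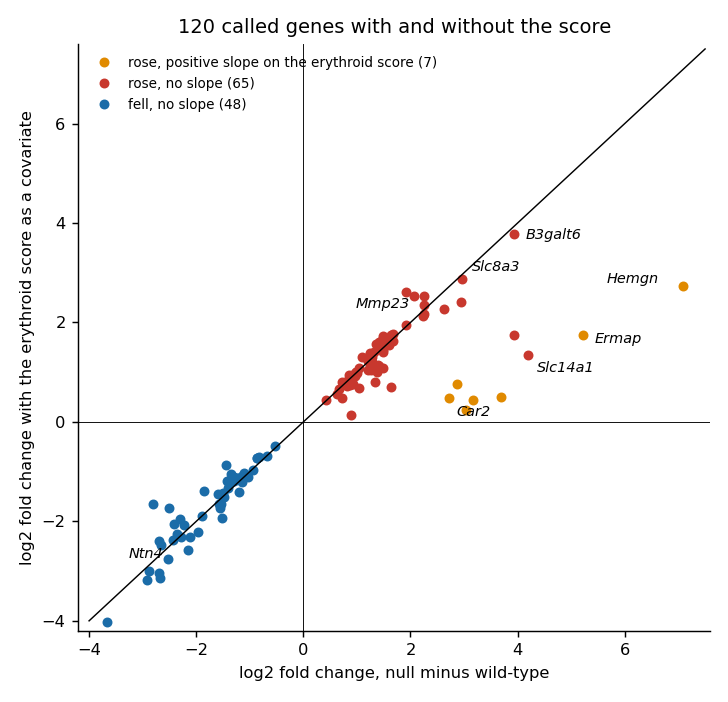
Log2 fold change of the 120 called genes (null minus wild-type, E16) on the horizontal axis and with the erythroid score as a covariate on the vertical axis, coloured by direction and by a called positive slope on the score; the line marks equal values. The 7 genes with a slope, 6 of them part of the score, fall well under the line (median 3.17 against 0.51), and the 65 other risers and 48 fallers lie along it with a few exceptions such as Slc14a1 (4.2 against 1.34). The genes were grouped by slopes on the same score, so this pattern follows largely from the grouping.

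The effect of Foxl2 loss at E16 was set beside that at E13 and at P0, stages that share no array with it. All 3 stages were fitted together with 1 variance per gene, so their calls are not fully independent. At E13, 254 genes (1.4%) were called and at P0 150 (0.825%). Of the 120 E16 genes 9 were called in the same direction at E13, which is 7.5% of the E16 genes and 3.54% of the E13 genes, and 30 at P0, which is 25% and 20%. All 3 stages called 6 genes: Foxl2, Slc8a3, Thbs2, Akr1c14, Adamts16 and Fam184b. Slc8a3 was higher by 1.98 at E13, 2.97 at E16 and 3.09 at P0. Of the 65 risers without a slope 50 were higher at E13 and 56 at P0, where 54.8% and 45.6% of all genes were higher. Of the 48 fallers, Foxl2 among them, 41 were lower at E13 and 43 at P0. Of the 7 red-cell risers 5 were higher at E13 and 2 at P0.

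The difference between stages was tested gene by gene. Against E13 the effect at E16 differed for 7 genes (0.0385%) and against P0 for 7 others (0.0385%). Of the 120 only Elovl2 and Wipf3 were among those that differed from E13, and Ckb among those that differed from P0. Elovl2 gave -0.045 at E13, -2.35 at E16 and -2.09 at P0. Dhh, Ntn4 and Hemgn looked uneven over the stages, but for these the difference was not called. The erythroid score was -1.22 in null and -1.38 in control ovaries at E13, and -2.05 and -2.01 at P0, so only at E16 did the groups differ by more than 1 on this scale.

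**Figure D5:**
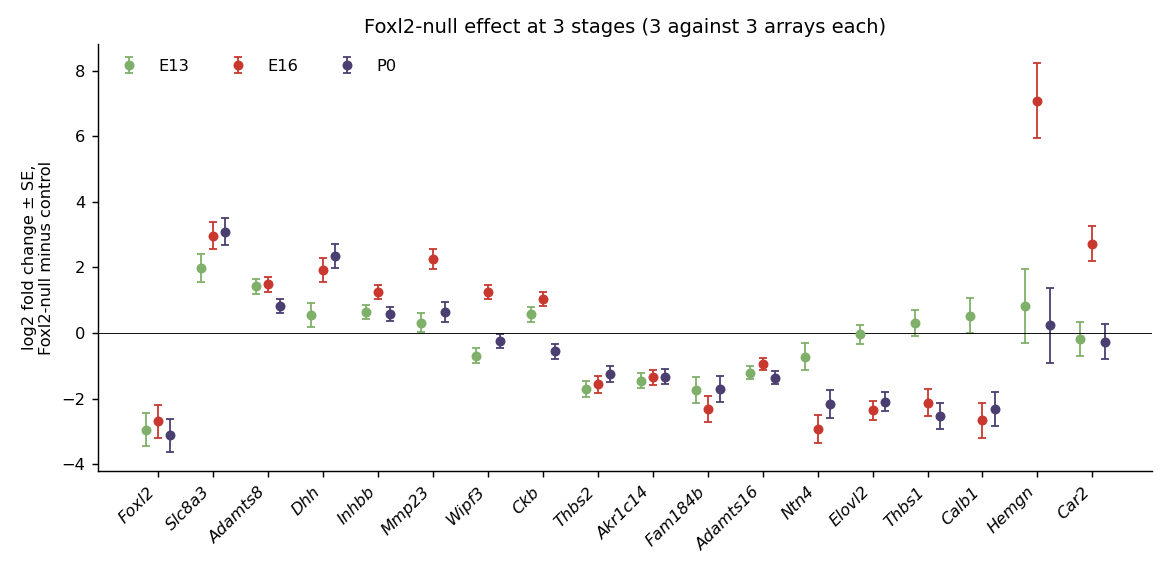
Log2 fold change of Foxl2-null over control ovaries with its SE at E13, E16 and P0 (3 against 3 arrays each, E13 controls labelled Foxl2+/-) for called genes of the E16 comparison. Foxl2, Slc8a3, Thbs2 and Akr1c14 lie on the same side of 0 at each stage, Elovl2 is at -0.045 at E13 and -2.35 at E16, and Hemgn and Car2 are high at E16.

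Lists of other cell types are given beside 0.66% of all genes called. At that share lists this short would mostly hold no called gene, so their counts say little about these cells. None of 12 germ-cell, 23 meiotic and 16 oocyte genes was called, with medians of -0.075, -0.1 and -0.006. None of 17 endothelial, 16 macrophage, 9 platelet and 10 granulocyte and mast-cell genes was called either. Their medians were 0.12, 0.19, 0.055 and -0.47. The summed macrophage signal was 7.13 to 9.96 in wild-type and 6.93 to 11.9 in null ovaries, overlapping ranges. That of the granulocyte and mast-cell list was 7.92 to 10.7 in wild-type, 2.06 to 7.9 in null and 2.91 to 9.51 in heterozygous ovaries, so the wild-type and null ranges nearly touch. Cpa3, a mast-cell protease, varied within both genotypes, at 2.93, 8.39 and 6.39 against 5.23, 2.25 and 0.484. None of 13 stromal, 10 surface epithelium, 15 striated muscle and 9 adrenal genes was called. Of the markers of tissues next to the ovary, Calb1 alone was called, in the mesonephric list.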

How the data were processed

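RNA of whole gonads was extracted with the MELT system, amplified with Pico Ovation and hybridised to Affymetrix MOE430 v.2 arrays, 1 animal per array by the study's methods. The deposited values are linear intensities that the authors summarised with plier in R and scaled to a common mean; the submitters' processing notes also name GCOS 1.3, and an absolute scale and a genome build are not given in the sources used here. Of 45071 probe sets 64 controls were left out. By the array annotation 34927 had 1 gene symbol, 930 several and 9150 none, and RefSeq updated the symbols. Array medians at E16 were 0.244 to 0.292 of the common mean, and replicates correlated at 0.9677 to 0.9771. Precision is limited by 3 arrays per group.

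For testing, 1% of the common mean was added before taking log2. The 15 group means were estimated together from the 43 arrays (limma 3.58.1 in R 4.3.3, eBayes with a trend, two-sided, Benjamini-Hochberg over 45007 probe sets, 28 residual degrees of freedom, 36.84 after moderation). The SE therefore uses 1 variance per gene over all groups. The program Focus of the study was not used. The erythroid slope was fitted within 13 groups of the other 37 arrays, and the score was a covariate in a further fit. Replicates are separate animals.

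The 33 lists (444 of 479 genes measured), the tests and the members were chosen with earlier results of these data known, so counts over them are descriptions. Named were Foxl2, the 15 largest rises and 15 largest falls without overlap and with the higher mean above 0.256, up to 4 members of each list by adjusted p, and members of the supporting-cell, activin, hedgehog and erythroid lists. Others, Ptpre, Fbn2, Adamts16, Sdc4 and Cpa3 among them, are named outside this rule, with their values known. Equal array numbers did not pair null and wild-type arrays (correlations of deviations -0.095, 0.046 and -0.125). Alternatives were other pseudocounts, scalings, filters, arrays in the fit, array weights, a replicate block, the score and leaving out each array.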

Additional observations from a re-analysis of the deposited data

Results flagged for a closer look

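The Foxl2-null effect at E16 differed from that at E13 or P0 for 14 genes by limma's test of the difference (adjusted p under 0.05), of which 3 were called at E16 itself. Elovl2 differed from E13 by -2.3 (adjusted p = 0.0199). Wipf3, an actin regulator, differed from E13 by 1.94 (adjusted p = 0.00571), and read 0.3, 0.291 and 0.321 in wild-type and 0.739, 0.626 and 0.864 in null ovaries at E16 (log2 1.25) against changes of -0.69 at E13 and -0.25 at P0. Ckb, a creatine kinase, differed from P0 by 1.58 (adjusted p = 0.0443), and read 0.458, 0.503 and 0.497 against 1.35, 0.864 and 0.851 at E16 (log2 1.03) against -0.56 at P0. All 3 changes at E16 were without overlap of the arrays.

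The other 11 were not called at E16. Against E13 the effect at E16 differed by 1.34 for Aldh3a2, -3.31 for the BMP ligand Bmp8b, -4 for the complement gene C8a and 2.28 for Gm16835 (adjusted p = 0.0436, 0.0126, 0.0248 and 0.0323). Khdc1a differed by -5.34 (adjusted p = 1.92e-08), from a change of 5.21 at E13 and -0.12 at E16. Against P0 it differed by 3.02 for Adamdec1, 2.07 for Fam160a1, 2.28 for the receptor kinase Ltk, 1.84 for Mybpc1, 1.6 for the semaphorin receptor Plxnc1 and -2.78 for the xanthine dehydrogenase Xdh (adjusted p = 0.021, 0.00899, 0.02, 0.0274, 0.02 and 0.0456). The changes at E16 itself ranged to -1.25 for C8a, -0.97 for Bmp8b and 0.53 for Aldh3a2, beside 2.75, 2.35 and -0.81 at E13. The E13 controls are labelled Foxl2+/-, which cannot be told apart from stage in the first set.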

How the results depend on the processing

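Each of the 120 genes that could be measured kept its sign in every alternative. The count of called genes was 217 (120 rose, 97 fell) from the 6 arrays alone, 203 (97 fell) from the 9 E16 arrays, 355 (210 and 145) with array weights, where wild-type array 2 weighed 2.48, 18 (7 and 11) with the erythroid score and 25 (12 and 13) with the score without its called members, an alternative chosen after seeing the data. Probe sets counted singly gave 183 calls, 77 of them lower. Leaving out 1 array gave 50 to 112 genes, 20 to 67 higher and 23 to 45 lower. The share of calls that rose was 60% and became 38.9% with the score, 48% with the reduced score and 40% without wild-type array 3. Foxl2 gave -2.69 (adjusted p = 0.226) with 0.1% added, -2.4 (adjusted p = 0.389) with the score, -2.41 (adjusted p = 0.239) with the reduced score, and -2.79 to -2.57 without single arrays. Genes whose effect differed from E13 numbered 12 with 5% added, 24 after quantile normalization, 1 with either score and 1 to 12 without single arrays; from P0 they numbered 0 with the score, 3 with the reduced score and 3 to 7 without single arrays. Positive slopes numbered 1 without the heterozygous arrays. With arrays of equal number as a replicate block 116 genes were called, 112 of them shared, although the numbers do not pair the arrays. Calls of Slc4a1, Rhd, Rhag, Slc14a1, Gstm1 and Mcm7 were lost in 5 of 6 leave-one-out fits, those of Ret, Mdga2, Smad3, Lrrc4 and Smim10l2a in 4, and those of Calb1, Wnt9a and Ndrg1 in 3. The causes were not tested. Dim probe sets such as Slc8a3 lie near the added 1%, which shrinks their folds.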

Other observations

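In 5 of the 120 genes all 3 heterozygous arrays lay past every wild-type array and their mean came within 0.2 (log2) of the null mean or went past it: B3galt6, L3mbtl3, AI506816, Tent5c and Phyhip. Their log2 fold changes of heterozygous over wild-type ovaries were 3.86 (adjusted p = 0.0168), -0.54, -3.69, 0.87 and 1.97 (adjusted p = 0.388, 0.295, 0.431 and 0.267 in limma). All null and heterozygous arrays of AI506816 lie under the added 1%, so the size of its change is set by that amount. The genes were picked out after their values were seen, and both comparisons share the wild-type arrays.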
